A study of Mus musculus with 6 samples.

Results

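The genes described are 38 lysosomal genes of mouse kidney: 11 cathepsins, 14 sugar and sulfate hydrolases, 3 lipid and peptide hydrolases, 3 activators and lipid carriers, 6 membrane proteins and the transcription factor Tfeb. They were chosen by name, from what their proteins do, and each was found on the array through the gene name or RefSeq accession of its probes. All 38 were measured, on 72 probes of the 56599 used, and all 38 were among the 22741 genes tested. Every one was well above background on all 6 arrays, so none entered the test through 1 group alone.

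RNA was taken from the renal cortex of male C57BL/6 mice and hybridised to 1-colour Agilent arrays, 3 for each genotype. One group is labelled C3aR-/- diabetic, for a knockout of the receptor for C3a, a fragment released from complement C3, and the other, WT diabetic, is labelled wild type. Both groups had been made diabetic in the same way. From 8 weeks of age the mice ate a diet with 60% of calories as fat. After 4 weeks on it they received streptozotocin, a toxin of insulin-producing beta cells, at 60 mg/kg on each of 3 days, and they were killed 26 weeks after that. The sources used here do not give how the C3aR-/- allele was made, or in which cell types the receptor is missing. Non-diabetic samples were not analysed here. Nothing in the labels says that replicates were separate animals, so the spread behind each p-value may be technical.

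Lysosomes are acid compartments in which proteases, glycosidases, sulfatases and lipases break down material taken up by endocytosis or delivered by autophagy. In the kidney the proximal tubule carries a heavy load of this work, because it takes up filtered protein, and macrophages and other leukocytes rely on their own set of lysosomal proteases to process antigen and activate granule enzymes. Many lysosomal genes carry in their promoters a palindrome known as the CLEAR motif, to which Tfeb and its relatives bind. The cathepsins Ctss, Ctsc, Ctsk and Ctsz are best known from leukocytes and other bone-marrow-derived cells, and are called leukocyte-rich below, while the other 7 cathepsins and the sugar, sulfate, lipid and peptide hydrolases, 24 in all, are made by most cell types.

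The CLEAR motif was looked for in the promoters, as the letters TCACGTGA, which read the same on both strands. Promoters were the RefSeq windows of GRCm38.p6, from 250 bases before to 50 bases after each gene's start, and 34 of the 38 genes matched one. Ctsb, Ctsh, Asah1 and Npc1 did not. The motif was present in 5 of the 34, or 14.7%, against 1.12% of the 27025 genes with a promoter. In the list of other lysosomal genes given below it was in 6 of 42 promoters, or 14.3%. The stretches of the 5 among the 34 are shown so that the element can be read in its context, with the motif in capitals.
Ctsa: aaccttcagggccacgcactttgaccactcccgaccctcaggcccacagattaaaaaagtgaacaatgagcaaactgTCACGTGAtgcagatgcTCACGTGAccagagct
Ctsd: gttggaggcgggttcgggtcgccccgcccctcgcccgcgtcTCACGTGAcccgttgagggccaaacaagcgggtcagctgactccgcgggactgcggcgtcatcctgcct
Cln3: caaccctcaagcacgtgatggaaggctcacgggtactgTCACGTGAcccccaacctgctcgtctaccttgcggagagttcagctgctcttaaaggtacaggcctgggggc
Gla: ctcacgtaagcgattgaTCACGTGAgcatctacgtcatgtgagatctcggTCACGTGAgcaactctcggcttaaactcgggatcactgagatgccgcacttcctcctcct
Mcoln1: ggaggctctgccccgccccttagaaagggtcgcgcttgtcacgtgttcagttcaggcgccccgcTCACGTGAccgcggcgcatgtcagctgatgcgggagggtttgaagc

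In GRCm38.p6 the Ctsa stretch is chr2:164833683-164833792 on the plus strand. The Ctsd stretch is chr7:142387858-142387967 and the Cln3 stretch chr7:126583287-126583396, both on the minus strand. The Gla stretch is chrX:134601141-134601250 on the minus strand, and that of Mcoln1 is chr8:3500409-3500518 on the plus strand. Each is written 5′ to 3′ in the direction of its gene. Counted from the gene's start, the motif began 46 bases before it in Mcoln1, 99 bases before it in Ctsd and 122 bases before it in Cln3. Ctsa and Gla held the motif more than once, and 1 of the 2 copies in Ctsa lay after the start.

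None of the 4 leukocyte-rich cathepsins held the CLEAR motif, and 3 of the 21 broadly expressed hydrolases with a promoter did. Its inner 6 letters, CACGTG, which every CLEAR match contains, were in 13 of the 34 promoters, or 38.2%, against 8.09% of all genes. The core was in 10 of the 21 hydrolases and in 0 of the 4 leukocyte-rich cathepsins. With 4 promoters in the latter list these counts are small, and whether the lists differ was not tested. Of the other lysosomal genes, 8 of 42 promoters, or 19.0%, held the core. A second motif, GAGGAAGT, read on both strands, was searched after the expression values had been seen. It is a purine-rich sequence of the kind bound by PU.1, a transcription factor of myeloid and B cells. It was found in 4 of the 34 promoters, or 11.8%, against 3.69% of all genes. Of the cell type markers used below it was in 7 of 45 promoters, or 15.6%, and of the macrophage markers among them in 1 of 9, or 11.1%. Among the 4 leukocyte-rich cathepsins it was in 2, Ctss and Ctsc. These stretches are shown for contrast with the 5 above, with the motif in capitals as it reads on the gene's strand, ACTTCCTC.
Ctss: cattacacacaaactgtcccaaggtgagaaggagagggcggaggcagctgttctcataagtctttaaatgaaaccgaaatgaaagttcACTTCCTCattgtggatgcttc
Ctsc: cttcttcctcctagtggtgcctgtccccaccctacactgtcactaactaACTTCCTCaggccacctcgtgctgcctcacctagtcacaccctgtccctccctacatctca

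The Ctss stretch is chr3:95526696-95526805 and the Ctsc stretch chr7:88277885-88277994, both on the plus strand of GRCm38.p6. Among the 34 promoters, the other 2 with this motif were those of Gla, whose copy lies at the right end of the stretch shown above, and Gusb. A match of letters is a description of the sequence only and shows no binding.

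Levels are given as log2 of the processed signal minus the array's 75th percentile, and differences as C3aR-/- minus WT on the log2 scale with limma's standard error over 3 arrays a group. A level of 1 gene's probe cannot be set against that of another. Between 58.6% and 63.0% of probes were well above background on an array, with the lowest shares on replicate 2 of both genotypes. C3ar1, the targeted gene, read -4.10, -4.95 and -4.69 on the C3aR-/- arrays, against -2.96, -3.86 and -3.62 on the WT arrays, without overlap. It was well above background on 2 of the 3 C3aR-/- arrays and on all 3 WT arrays, so signal remained in the knockout. Its difference was -1.10 ± 0.30 (limma, unadjusted p = 0.00989, adjusted p = 0.931), and the sources used here do not give whether its probe (mm9 chr6:122798222-122798281) matches the part that was removed. Proximal tubule markers such as Slc34a1 and Lrp2 were well above background on every array.

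Over the whole table no gene passed an adjusted p of 0.05 in limma (0% of 22741), while 4.89% had an unadjusted p under 0.05. Among the 38 lysosomal genes 0 passed the adjusted threshold, and 1 had an unadjusted p under 0.05. That 1 was Ctss, which read lower in C3aR-/- cortex, as did 2.68% of all genes at this threshold. The genes were split evenly, 19 lower and 19 higher in C3aR-/- cortex, where 43.4% of all genes were lower. Their median difference was -0.0041, against 0.026 over all genes. The groups did not overlap for 3 genes lower in C3aR-/- cortex (Ctss, Ctso and Npc2), where 4.19% of all genes were so, and for 1 higher (Idua), where 5.66% were. With 38 genes these counts are small, and whether they differ from the shares of all genes was not tested.

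**Figure D1:**
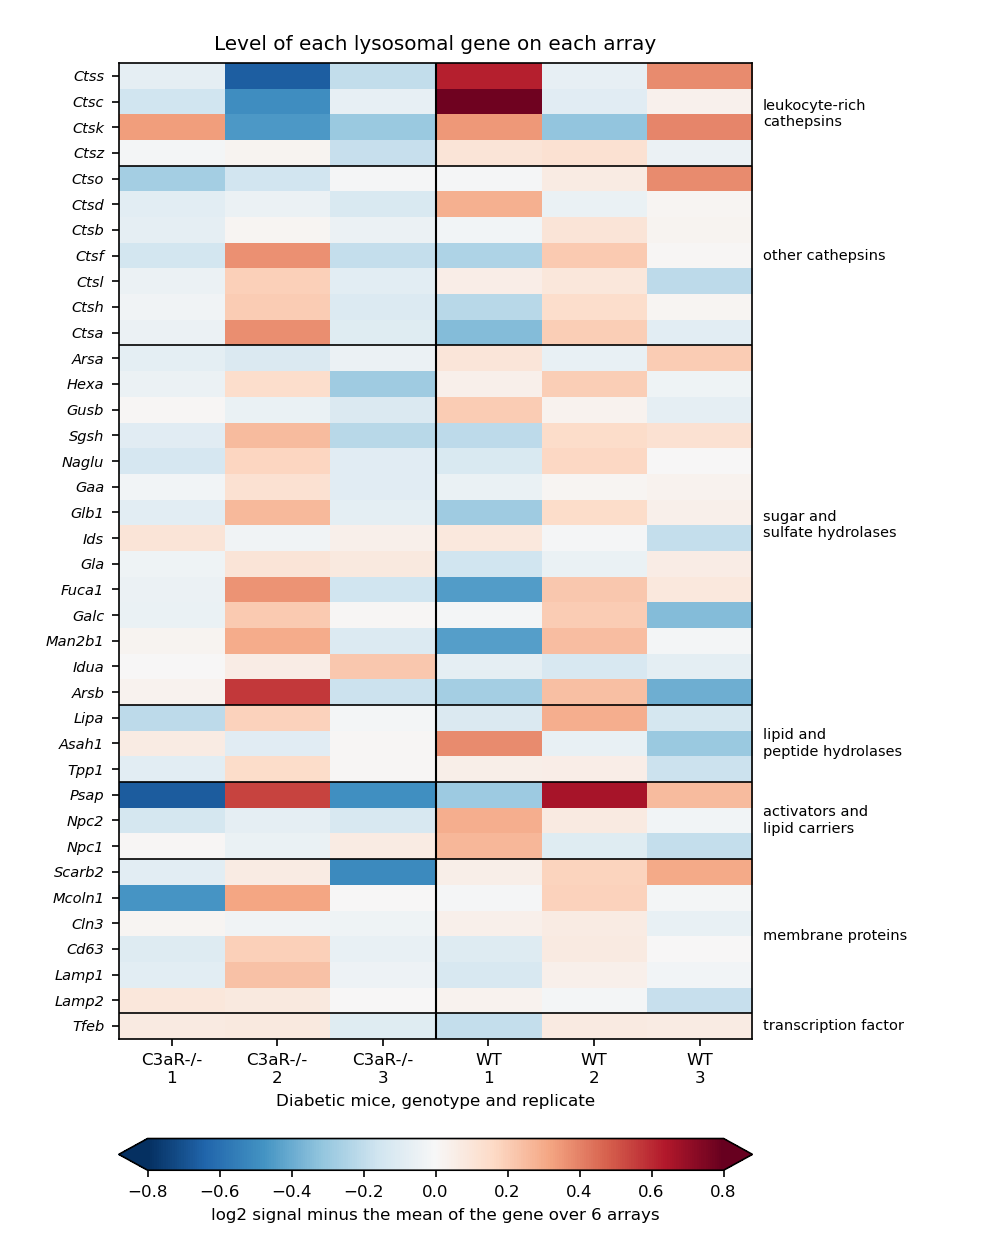
Heat map of the 38 lysosomal genes (rows, by role) on the 3 C3aR-/- arrays (left) and the 3 WT arrays (right). Colour is the log2 signal minus the gene's mean over the 6 arrays, red above and blue below. Ctss and Ctsc, at the top, are bluest on C3aR-/- replicate 2 and reddest on WT replicate 1, while many hydrolases lower down are red on replicate 2 of both genotypes.

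The 4 leukocyte-rich cathepsins all read lower in C3aR-/- cortex, with a median difference of -0.38. Ctss, a cysteine protease with which antigen-presenting cells trim the chaperone of MHC class II, had levels of 3.83, 3.25 and 3.71 on the C3aR-/- arrays and 4.53, 3.84 and 4.28 on the WT arrays. All 3 C3aR-/- arrays lay below all 3 WT arrays, though C3aR-/- replicate 1 and WT replicate 2 were almost level. Its difference was -0.62 ± 0.23, 0.650 of the WT level, with a 95% interval of -1.17 to -0.069 (limma, unadjusted p = 0.0328, adjusted p = 0.931). Its only probe lies at mm9 chr3:95360162-95360221 on the plus strand, and which exon or UTR a probe matches was not analysed here.

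Ctsc, the dipeptidyl peptidase that activates the serine proteases of leukocyte granules, read 1.02, 0.69 and 1.12 on the C3aR-/- arrays and 1.96, 1.09 and 1.21 on the WT arrays. The groups overlapped by 1 pair of arrays, and WT replicate 1 stood well above the other 5. The difference was -0.48 ± 0.25, with a 95% interval of -1.09 to 0.13 (limma, unadjusted p = 0.105). It was -0.21 without WT replicate 1 and -0.081 when C3aR-/- replicate 2 was dropped as well. Ctsc had 3 probes, and all 3 were lower in C3aR-/- cortex. The probe used lies at mm9 chr7:95458436-95458495, and the others gave differences of -0.67 (limma over probes, unadjusted p = 0.036) and -0.55 (unadjusted p = 0.0206). On both of these dimmer probes the groups did not overlap, and WT replicate 1 was again the highest array. On the second of them the C3aR-/- arrays read -2.55, -2.36 and -2.12 and the WT arrays -1.56, -2.10 and -1.72. The values without WT replicate 1 are for the probe used alone.

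Ctsk, the collagen-cleaving cathepsin of osteoclasts, read 1.18, 0.39 and 0.55 on the C3aR-/- arrays and 1.20, 0.53 and 1.24 on the WT arrays. The 2 genotypes covered nearly the same range, with 1 high array in C3aR-/- and 1 low array in WT. Its difference, -0.28 ± 0.28, was about the size of its error. Ctsz, a carboxypeptidase abundant in myeloid cells, read 5.13, 5.17 and 4.96 on the C3aR-/- arrays and 5.25, 5.27 and 5.10 on the WT arrays. Its arrays lay close together and overlapped, and the difference was -0.12 ± 0.11. Of the 4, then, Ctsk and Ctsz had differences of about the size of their standard errors, and Ctss a larger one. Ctsc had a larger one that, on the probe used, rested mostly on WT replicate 1.

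The other 7 cathepsins showed no common direction, with 3 lower, 4 higher and a median difference of 0.020. Ctso, a little-studied cysteine protease, read -2.30, -2.18 and -2.04 on the C3aR-/- arrays and -2.04, -1.97 and -1.65 on the WT arrays. The groups met at -2.04 without overlapping, and the difference was -0.29 ± 0.14 (limma, unadjusted p = 0.0819, probe at mm9 chr3:81760551-81760610). Ctsd, the main aspartic protease of lysosomes, read 6.70, 6.73 and 6.66 on the C3aR-/- arrays and 7.07, 6.73 and 6.79 on the WT arrays. Its C3aR-/- arrays were nearly equal and WT replicate 1 was alone in being high, for a difference of -0.17 ± 0.12. Ctsa, a carboxypeptidase that also protects beta-galactosidase and neuraminidase, read 6.69, 7.11 and 6.64 on the C3aR-/- arrays and 6.39, 6.93 and 6.65 on the WT arrays. Replicate 2 was the highest of its group in both genotypes, and the difference was 0.15 ± 0.19. Ctsb, Ctsf, Ctsh and Ctsl, all cysteine proteases of wide expression, had differences from -0.067 for Ctsb to 0.044 for Ctsh.

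**Figure D2:**
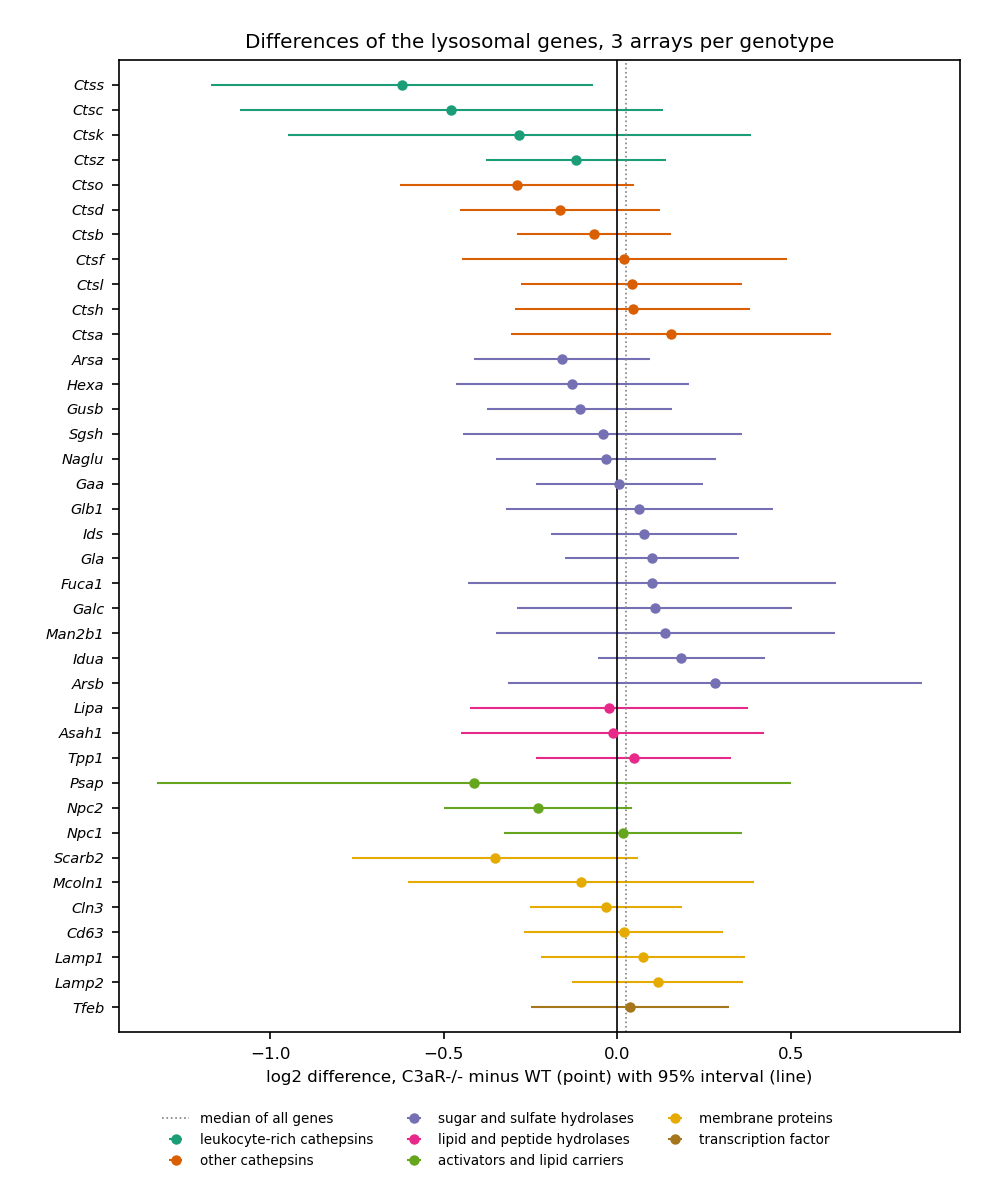
Log2 difference of each of the 38 genes, C3aR-/- minus WT (points), with limma's 95% interval (lines), 3 arrays per genotype. Rows are ordered by role, and the dotted line is the median of all genes at 0.026. The interval of Ctss, from -1.17 to -0.069, is the only one of the 38 that leaves out 0, and that of Psap is the widest to the left.

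The 14 sugar and sulfate hydrolases had 5 members lower and 9 higher in C3aR-/- cortex, a median difference of 0.070, and no member with an unadjusted p under 0.05. Idua, which removes iduronic acid from heparan and dermatan sulfate, read 3.19, 3.25 and 3.40 on the C3aR-/- arrays and 3.11, 3.06 and 3.11 on the WT arrays. It was the 1 gene of the 38 whose C3aR-/- arrays all lay above the WT arrays, by a difference of 0.18 ± 0.10 (limma, unadjusted p = 0.110, probe at mm9 chr5:109112893-109112952). Arsa, the sulfatase of sulfatide, read 2.14, 2.10 and 2.17 on the C3aR-/- arrays and 2.32, 2.16 and 2.42 on the WT arrays. The groups overlapped at WT replicate 2, and the difference was -0.16 ± 0.11. Arsb, the sulfatase of dermatan and chondroitin sulfate, read -1.41, -0.87 and -1.61 on the C3aR-/- arrays and -1.71, -1.19 and -1.83 on the WT arrays. Replicate 2 was highest in both genotypes, and the difference of 0.28 ± 0.25 was about the size of its error. All 3 Arsb probes that were kept read higher in C3aR-/- cortex, and the dimmest of them, at 0.60, had the lowest p (limma over probes, unadjusted p = 0.00945). That probe is annotated to a cDNA clone of unclassified product, and the others to the RefSeq mRNA of Arsb.

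The remaining 11 sugar hydrolases differed by amounts from -0.13 for Hexa, a subunit of the hexosaminidase that degrades gangliosides, to 0.14 for Man2b1, the acid alpha-mannosidase. Gla, the alpha-galactosidase that is deficient in Fabry disease, differed by 0.10 ± 0.10. Gaa, which degrades glycogen, differed by 0.0053 ± 0.10 on the probe used and by -0.46 on a dim second probe (limma over probes, unadjusted p = 0.0345), so its probes disagree. The heparan sulfate enzymes Sgsh, Naglu and Ids had differences of -0.042, -0.032 and 0.077. Gusb, Glb1, Galc and Fuca1, which release glucuronic acid, galactose from glycans or lipids, and fucose, lay between -0.11 and 0.11.

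The lipid and peptide hydrolases were close to 0. Lipa, the acid lipase that frees cholesterol from its esters, read 3.63, 4.02 and 3.82 on the C3aR-/- arrays and 3.72, 4.13 and 3.69 on the WT arrays. Asah1, the acid ceramidase, read 2.92, 2.77 and 2.86 on the C3aR-/- arrays and 3.23, 2.80 and 2.56 on the WT arrays. Both overlapped almost fully, with differences of -0.023 ± 0.17 for Lipa and -0.014 ± 0.18 for Asah1. Tpp1, a tripeptidyl peptidase, read 5.93, 6.16 and 6.02 on the C3aR-/- arrays and 6.06, 6.07 and 5.84 on the WT arrays, a difference of 0.047 ± 0.12. The overlap was again nearly complete.

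Together, the 24 broadly expressed hydrolases had 10 members lower and 14 higher in C3aR-/- cortex, and 0 with an unadjusted p under 0.05. Their median difference was 0.031, beside 0.026 over all genes. In 22 of the 24 the difference was smaller than 0.2 on the log2 scale, and in 19 it was smaller than its own standard error. The 95% intervals reached from -0.62 at their lowest, for Ctso, to 0.88 at their highest, for Arsb, so with 3 arrays a group they leave room for differences of that size in those genes. The 4 leukocyte-rich cathepsins had 4 of 4 lower and a median of -0.38. The contrast between these lists was not tested.

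Among activators and lipid carriers, Psap had the largest spread of the 38 genes. Psap encodes the precursor of the saposins, which present sphingolipids to their hydrolases. It read 4.03, 5.23 and 4.20 on the C3aR-/- arrays and 4.40, 5.35 and 4.95 on the WT arrays. Replicate 2 was highest in both genotypes by a wide margin, so the SD was 0.65 in C3aR-/- and 0.48 in WT cortex, and the difference of -0.41 ± 0.38 was about its own error. It moved to -0.79 without C3aR-/- replicate 2 (limma, unadjusted p = 0.0372), to -0.18 and -0.27 when replicate 1 or replicate 3 of C3aR-/- was dropped, and to -0.66 and -0.19 when replicate 1 or replicate 2 of WT was.

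Npc2, the soluble carrier that hands cholesterol to Npc1, read 3.57, 3.65 and 3.59 on the C3aR-/- arrays and 4.01, 3.79 and 3.70 on the WT arrays. The C3aR-/- arrays were nearly equal and all lay below WT, by a difference of -0.23 ± 0.11 (limma, unadjusted p = 0.0860, probe at mm9 chr12:86097947-86098006). Npc1, the membrane protein that exports this cholesterol, read 1.73, 1.67 and 1.79 on the C3aR-/- arrays and 1.99, 1.62 and 1.53 on the WT arrays. Its groups overlapped, with a difference of 0.016 ± 0.14.

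The 6 membrane proteins were split into 3 lower and 3 higher, with a median difference of -0.0070. Scarb2, the receptor that carries glucocerebrosidase to the lysosome, read 2.28, 2.44 and 1.86 on the C3aR-/- arrays and 2.42, 2.55 and 2.67 on the WT arrays. The groups overlapped only where C3aR-/- replicate 2 met WT replicate 1, and the difference was -0.35 ± 0.17 (limma, unadjusted p = 0.0815). It was -0.17 on the gene's other probe (limma over probes, unadjusted p = 0.366). That other probe is annotated to the RefSeq mRNA of Scarb2, and the probe used to a cDNA clone of unclassified product. On the probe used the difference was -0.19 without C3aR-/- replicate 3, the lowest array, and -0.47 without C3aR-/- replicate 2 (limma, unadjusted p = 0.0353). Its unadjusted p was under 0.05 in 5 of 18 settings. Lamp2, a heavily glycosylated protein of the lysosomal membrane, read 5.08, 5.07 and 4.99 on the C3aR-/- arrays and 5.02, 4.97 and 4.80 on the WT arrays. Its close relative Lamp1 read 7.70, 8.01 and 7.74 on the C3aR-/- arrays and 7.65, 7.82 and 7.76 on the WT arrays. Both overlapped between genotypes, with differences of 0.12 ± 0.10 for Lamp2 and 0.074 ± 0.12 for Lamp1. The 3 Lamp2 probes, which match different transcripts, gave 0.12, 0.18 and 0.025. The calcium-permeable channel Mcoln1, the membrane protein Cln3 and the tetraspanin Cd63 differed by -0.11, -0.032 and 0.018.

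Tfeb, which drives lysosomal genes when it enters the nucleus, read -0.21, -0.21 and -0.38 on the C3aR-/- arrays and -0.48, -0.22 and -0.22 on the WT arrays. Each genotype had 1 low array, and the difference was 0.037 ± 0.12. Tfeb had 4 probes kept, and they differed in direction. Those dimmer than the probe used gave 0.0077, -0.060 and -0.56, the last with the smallest p (limma over probes, unadjusted p = 0.0855). The entry of the protein into the nucleus is not measured by these arrays. The 5 genes whose promoters held the CLEAR motif had 3 members lower and 2 higher and a median difference of -0.032. The 13 with its core had a median of 0.0053, and the 21 with a promoter but no core had -0.023. All 3 medians lay close to 0, as did that of all genes.

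Markers of several cell types differed between the same arrays as these genes. Values of a list are given as the mean over its genes of the log2 level, each gene centred on its mean over 6 arrays. The leukocyte-rich cathepsins stood at 0.021, -0.40 and -0.19 on the C3aR-/- arrays and at 0.46, -0.088 and 0.19 on the WT arrays. C3aR-/- replicate 2 was the lowest and WT replicate 1 the highest, and the groups overlapped at C3aR-/- replicate 1 and WT replicate 2. The 14 macrophage markers stood at -0.077, -0.57 and -0.11 on the C3aR-/- arrays and at 0.53, -0.13 and 0.36 on the WT arrays, with the same arrays at the ends. Of them, 13 of 14 were lower in C3aR-/- cortex, with a median difference of -0.56, and 7 of these had an unadjusted p under 0.05. At this threshold 2.68% of all genes were lower, and the lowest adjusted p of a macrophage marker was 0.920 (limma). All 14 were well above background on every array, and Itgam was the 1 that read higher, at 0.24.

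Of the markers common to all leukocytes, 3 of 4 were lower, and Ptprc, the CD45 gene, was not, at 0.088 ± 0.14. All 7 T cell markers were lower, with a median difference of -1.23. The macrophage, T cell and common leukocyte lists were all lowest on C3aR-/- replicate 2, as the leukocyte-rich cathepsins were. Other lists of white blood cells were not. The 3 B cell markers measured, all lower in C3aR-/- cortex, stood at -0.035, -0.13 and -0.67 on the C3aR-/- arrays and at 0.35, 0.19 and 0.29 on the WT arrays. The 5 neutrophil markers, 3 lower and 2 higher, stood at -0.21, -0.033 and -0.016 on the C3aR-/- arrays and at 0.40, -0.0080 and -0.14 on the WT arrays. B cell markers were thus lowest on C3aR-/- replicate 3 and neutrophil markers on C3aR-/- replicate 1.

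Fibroblast markers, 5 of 6 lower with a median difference of -0.27, stood at 0.22, -0.62 and -0.024 on the C3aR-/- arrays and at 0.23, -0.16 and 0.36 on the WT arrays. Their lowest array was again C3aR-/- replicate 2, and their highest was WT replicate 3, as for Ctsk. The part of leukocyte or fibroblast RNA in the differences of these cathepsins was not tested. In whole cortex, fewer cells of a type and less RNA per cell cannot be told apart.

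**Figure D3:**
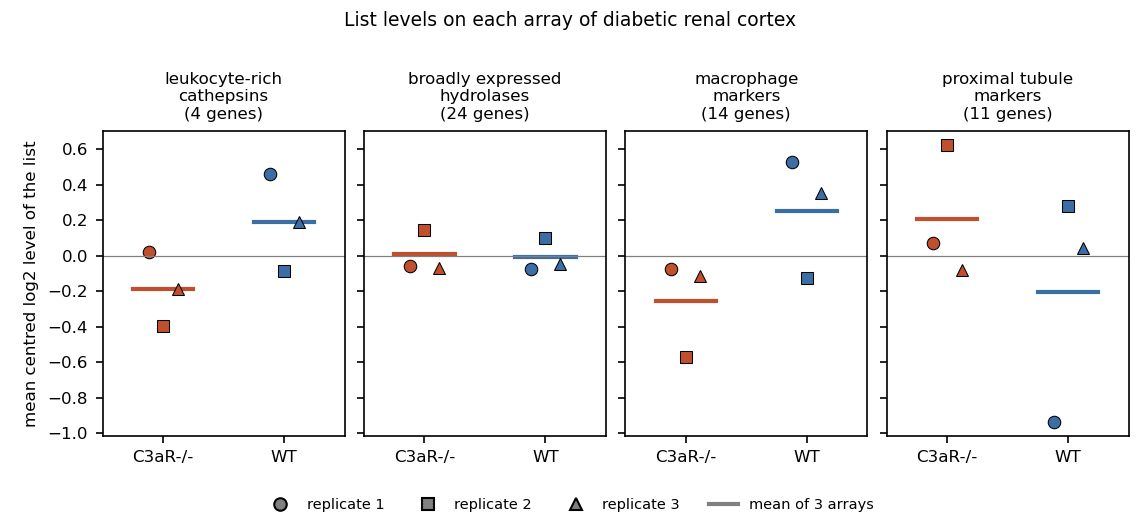
Mean centred log2 level of 4 gene lists on each array, C3aR-/- left and WT right, with a symbol for each replicate and a bar for the mean of 3 arrays. The leukocyte-rich cathepsins and macrophage markers are lowest on C3aR-/- replicate 2 and highest on WT replicate 1. Proximal tubule markers are the reverse, and the 24 broadly expressed hydrolases stay between -0.076 and 0.15.

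The broadly expressed hydrolases stood at -0.056, 0.15 and -0.070 on the C3aR-/- arrays and at -0.076, 0.10 and -0.044 on the WT arrays. Replicate 2 was the highest of both genotypes, and these were the arrays with the fewest probes above background. Which array was highest was counted after the values had been seen. Replicate 2 was highest in both genotypes for 15 of the 24 hydrolases, or 62.5%, for 10 of 11 proximal tubule markers and for 0 of 14 macrophage markers, against 17.9% of all genes. For 3 of the 4 leukocyte-rich cathepsins replicate 2 was instead lowest in both genotypes, as it was for 13 of 14 macrophage markers and for 17.7% of all genes. For the remaining one, Ctsz, replicate 2 was highest in both genotypes, as for most of the hydrolases. A low replicate 2 was not particular to leukocyte lists. The fibroblast list, given above, and the list of 5 podocyte markers were also lowest on replicate 2 in both genotypes. Podocyte markers stood at 0.14, -0.17 and 0.19 on the C3aR-/- arrays and at 0.0093, -0.29 and 0.12 on the WT arrays.

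The proximal tubule list stood at 0.071, 0.62 and -0.079 on the C3aR-/- arrays and at -0.94, 0.28 and 0.042 on the WT arrays. All 11 of its markers read higher in C3aR-/- cortex, with a median difference of 0.40, and 0 had an unadjusted p under 0.05. C3aR-/- replicate 2 was highest and WT replicate 1 lowest for 11 of these 11 markers. The same held for 7 of the 24 hydrolases, Ctsa, Ctsf, Ctsh, Gla, Glb1, Man2b1 and Fuca1, and for 14.3% of all genes. The opposite order, C3aR-/- replicate 2 lowest and WT replicate 1 highest, held for Ctss and Ctsc, for 11 of 14 macrophage markers and for 2439 of the 22741 genes. The list of 6 distal nephron markers had the same end arrays as the proximal tubule list. It stood at -0.071, 0.22 and 0.11 on the C3aR-/- arrays and at -0.38, 0.085 and 0.041 on the WT arrays. All 6 read higher in C3aR-/- cortex, with a median difference of 0.16, and 0 had an unadjusted p under 0.05. The 5 endothelium markers, 4 of them higher, were instead highest on C3aR-/- replicate 1 and lowest on C3aR-/- replicate 3. The part of tubule RNA in the hydrolase levels was not tested.

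The 6 arrays shared 1 slide, scanned once, on which 2 rows each held both genotypes. Within row 1, with 2 arrays of each genotype, the median difference was -0.20 for the leukocyte-rich cathepsins and 0.0088 for the hydrolases. Within row 2, with C3aR-/- replicate 3 and WT replicate 1, it was -0.73 and 0.0096. Ctss differed by -0.52 in row 1 and -0.82 in row 2. The leukocyte-rich median kept its sign without any 1 array, but its size rested on them. It was -0.25 when C3aR-/- replicate 2 was dropped, and -0.19 and -0.58 when replicate 1 or replicate 2 of WT was. Without both C3aR-/- replicate 2 and WT replicate 1 it was -0.11, beside -0.12 for the hydrolases, so the lists no longer stood apart. Those arrays lie at opposite ends of the first principal component, in opposite genotypes. The part of that component in the list medians was not tested. Not every difference shrank without both arrays, and that of Psap went from -0.41 to -1.04.

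**Figure D4:**
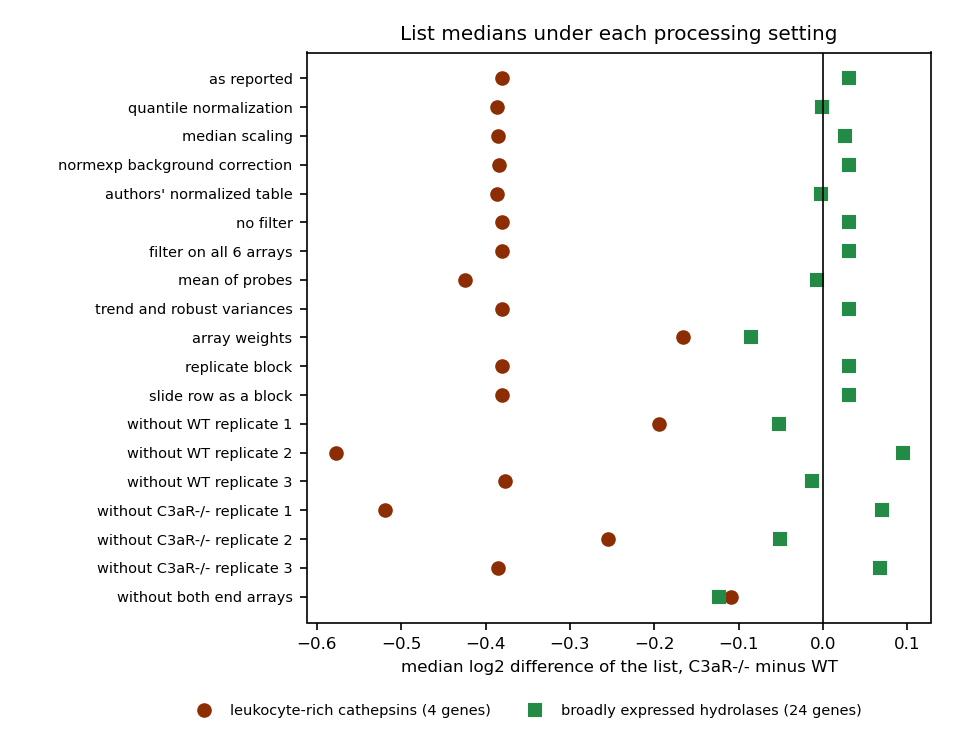
Median log2 difference, C3aR-/- minus WT, of the 4 leukocyte-rich cathepsins (circles) and the 24 broadly expressed hydrolases (squares) as reported and under 18 other settings. The circles range from -0.58 to -0.11 and the squares from -0.12 to 0.094, and they meet where both end arrays are left out.

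Ctss kept its direction under all 18 settings, between -0.81 and -0.29, and had an unadjusted p under 0.05 in 12 of them. In the other 6 its unadjusted p was above 0.05 (limma). These were the fits that dropped replicate 2 (0.0940) or replicate 3 (0.0523) of C3aR-/-, replicate 1 (0.0965) or replicate 3 (0.0850) of WT, or both end arrays (0.178), and the fit with array weights (0.141). No lysosomal gene had an adjusted p below 0.381 under any of the 18.

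Other genes of the lysosome, 61 in a list beside the 38, gave the setting for these values, and 60 of them were measured. Ctsg, the granule protease of neutrophils, was well above background on 0 arrays. Of the 60, 27 were lower and 33 higher in C3aR-/- cortex, with a median difference of 0.016, and 4 had an unadjusted p under 0.05, all lower, where 4.89% of all genes had such a p and 2.68% were lower with it. The groups did not overlap for 6 of the 60 that were lower in C3aR-/- cortex and for 1 that was higher, where 4.19% and 5.66% of all genes were so. Whether these small counts differ from the shares of all genes was not tested. The 4 genes with an unadjusted p under 0.05 were Laptm5, Ctsw, Cst7 and Pla2g15. Laptm5, a lysosomal membrane protein of blood cells, read 0.28, -0.036 and 0.21 on the C3aR-/- arrays and 0.85, 0.38 and 0.79 on the WT arrays. The groups did not overlap, and the difference was -0.52 ± 0.16 (limma, unadjusted p = 0.0165, adjusted p = 0.931).

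Ctsw, a cathepsin of cytotoxic lymphocytes, read -2.23, -2.94 and -1.78 on the C3aR-/- arrays and -1.49, -1.57 and -1.08 on the WT arrays, a difference of -0.93 ± 0.30. Cst7, a cystatin of leukocytes that can inhibit Ctsc, read -4.55, -5.93 and -3.86 on the C3aR-/- arrays, of which 2 were well above background, and -2.93, -3.76 and -3.49 on the WT arrays, a difference of -1.38 ± 0.53. Both were lower on every C3aR-/- array than on any WT array. Pla2g15, a phospholipase of lysosomes, read -1.0, -0.35 and -0.20 on the C3aR-/- arrays and 0.26, -0.18 and 0.065 on the WT arrays. Its groups were separate but close at -0.20 and -0.18, and the difference was -0.57 ± 0.23.

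Cst3, the secreted cystatin C, read 5.52, 5.45 and 5.62 on the C3aR-/- arrays and 5.83, 5.62 and 5.77 on the WT arrays, which met at 5.62. With it, all 4 cystatins, inhibitors of the cysteine cathepsins, read lower in C3aR-/- cortex, though Cst7 alone had an unadjusted p under 0.05. The differences of the other 3 were -0.21 ± 0.11 for Cst3, -0.34 ± 0.28 for Cst6 and -0.14 ± 0.19 for Cstb. The 17 other membrane proteins of the lysosome, with 5 lower, 12 higher and a median difference of 0.056, and the 7 genes of enzyme sorting and maturation, with 3 lower and 4 higher, were close to all genes.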

How the data were processed

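RNA of 6 samples of renal cortex, grouped by their titles, was measured on 1-colour arrays. The labelled input was 0.2 µg of RNA, per the labels' protocols. The deposited intensity values come from Agilent Feature Extraction 10.7.1.1, per the file headers, and of these the processed signal is background-subtracted and not normalized between arrays. The authors' deposited table holds log2 values, normalized between arrays by a step not given in the sources used here, and was an alternative.

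Control spots, spots flagged as outliers and the 6 probes they left empty were dropped, spots of 1 probe were averaged, and log2 of the processed signal minus the array's 75th percentile was used. Probes well above background on at least 3 arrays were kept (34778), and the probe with the highest mean over 6 arrays stood for its gene. RefSeq accessions gave the symbols of 32987 probes, and 23612 kept the name in the files. Of the 38 genes, 16 had over 1 probe kept, and in 6 of these (Cln3, Ctsh, Gaa, Glb1, Npc1 and Tfeb) probes differed in direction. Genotypes were compared in R 4.3.3 by limma 3.58.1 (functions lmFit, eBayes), and p-values were adjusted by Benjamini-Hochberg over 22741 genes. The fit was tested on simulated data first. The number of arrays limits the precision, and no spot was saturated.

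Members and lists were chosen with earlier results of these data known, and so were the slide row and end arrays as alternatives. Every array's values are given for the leukocyte-rich cathepsins, for the 3 smallest p-values in each larger role, for all members of small roles and for the 5 smallest p-values among other lysosomal genes. Promoters holding TCACGTGA are printed. Protein sequences were not used here. Alternatives were other normalizations, background correction (normexp, offset 50), filters, probe rules, variance settings, blocks, and leaving out arrays. Promoter sequences are RefSeq's (GRCm38.p6). Probe positions are those of the file headers' mm9 grid. Figures were drawn with matplotlib 3.10.9.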

Additional observations from a re-analysis of the deposited data

How the results depend on the processing

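No gene passed the adjusted threshold in limma under any of the 18 alternatives (0 genes), where 1111 had an unadjusted p under 0.05 as reported and from 767 (without C3aR-/- replicate 1) to 2115 (array weights) in the alternatives. Lysosomal genes with an unadjusted p under 0.05 numbered 1 as reported, 2 with normexp background correction and 2 with the mean of probes. Of all 22741 genes, 1054 had such a p with normexp and 1156 with the mean of probes. The lysosomal genes numbered 3 with array weights, 3 with the slide row as a block and 3 without both end arrays. Calls over all genes also rose in these settings, to 2115, 1741 and 2025. Leaving out 1 array gave from 0 to 2 lysosomal genes: 0 without C3aR-/- replicate 3 or WT replicate 3, and 2 without C3aR-/- replicate 2. Over all genes these fits gave 1182, 908 and 1058. Which lysosomal genes were called varied. Ctsc joined Ctss with the mean of probes (limma, unadjusted p = 0.0371). Without both end arrays they were Psap, at -1.04 (limma, unadjusted p = 0.00333), Scarb2, at -0.54, and Sgsh, at -0.29. The median of the leukocyte-rich cathepsins was -0.17 with array weights, -0.11 without both end arrays, and between -0.58 and -0.19 without 1 array. The median of the broadly expressed hydrolases was -0.086 with array weights, -0.12 without both end arrays and between -0.052 and 0.094 without 1 array. The median of all 38 genes was -0.091 with array weights, -0.12 without both end arrays and between -0.064 and 0.032 without 1 array. That of the other lysosomal genes was -0.031 with array weights, and from -0.018 to 0.048 without 1 array. C3ar1 stayed lower under every alternative that tested it, but at -0.65 without both end arrays, -0.66 with array weights and -0.39 with normexp. It was not tested with a filter on all 6 arrays. Ctsk turned to 0.10 with array weights, the 1 gene with a difference larger than its standard error that changed direction. Of the 38, 17 kept their direction under all 18 alternatives, 3 of the 4 leukocyte-rich cathepsins among them, and 21 turned under at least 1, of which 20 had differences smaller than their standard errors. The cause of these changes was not tested. With the inner 6 letters in place of the CLEAR motif, the share of promoters was 38.2% in place of 14.7%.

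With the replicate number as a block, 4 of the 38 lysosomal genes had an unadjusted p under 0.05 in limma. They were Ctss at 0.00221, Arsb at 0.0410, Ctso at 0.0424 and Psap at 0.0483. Of all 22741 genes, 1596 had such a p under this block, and 1111 as reported. The labels tie no number to a shared animal, batch or day. Deviations of same-numbered arrays from their group means correlated at 0.13, 0.41 and -0.093 for replicates 1, 2 and 3. With 3 arrays a group, these values cannot settle whether same-numbered arrays shared a factor. With 3 arrays a group, differences as small as those of most of these genes stayed within their error.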
